A study of Mus musculus with 8 samples.

Results

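The histone genes of the mouse were followed in testes that lack most of the kinase VRK1, using the probes of a whole genome array whose gene name gave a histone gene cluster (Hist, a number and h) or began with H2af, H3f3 or H1f. This rule took 67 of 41174 probes and 47 of 27962 gene names. Of these, 32 genes (42 probes) were replication-dependent histones, 2 (Hist1h1t and Hist1h2ba) were testis forms, and 13 (23 probes) were variants. Cy3-labeled RNA from whole testes of male mice, taken on postnatal day 8, was measured on 1-color Agilent arrays, with 4 biological replicates of wild type and 4 of VRK1-deficient mice and 1 array per replicate. The VRK1-deficient mice were homozygous for a β-geo gene trap in an intron of Vrk1, on a line backcrossed to C57BL/6. The trap was constitutive and not limited to a cell type, and it was hypomorphic, since some full-length VRK1 remained. The labels do not tell whether a replicate was a single mouse, so p-values measure the spread between these samples.

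Replication-dependent histone genes lie in clusters and are transcribed when DNA is copied in S phase. Their mRNA normally ends in a short stem-loop in place of a poly(A) tail, and this stem-loop is bound by Slbp. The genes of variant histones such as H2A.Z and H3.3 lie outside these clusters. Their mRNA carries a poly(A) tail, and these histones are made throughout the cell cycle. In the testis, the linker histone H1t (Hist1h1t) and the histone TH2B (Hist1h2ba) are deposited in germ cells, and most histones are later exchanged for transition proteins and protamines in spermatids. VRK1 is a chromatin kinase, and histone H3 is among its substrates. The labeling kit primes from the poly(A) tail, so the signal of a replication-dependent gene here is that of its RNA with an A-rich end, and not of its whole mRNA.

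Each value below is the processed signal over the 75th percentile of the signals on the same array, in log2, called the log2 scaled signal. A log2 change is VRK1-deficient minus wild type. Levels of different probes are not comparable. A probe was tested when at least 4 of 8 arrays held it well above background, and called at an adjusted p under 0.05 in limma, with Benjamini-Hochberg adjustment across the 26962 tested probes. The 2 Vrk1 probes gave a log2 change of -3.93 and -4.00 (adjusted p = 2.09e-05 and 0.000135 in limma). Of both genotypes, replicates 1 and 2 were on slide 1 and replicates 3 and 4 on slide 2, and genotype and array position within a slide cannot be told apart. Wild type replicate 1 stood apart from its group. Over all tested probes it correlated with the other wild type arrays at 0.970 to 0.986 and with the VRK1-deficient arrays at 0.987 to 0.990. The mean signal of 8 germ cell markers was 1.24 on that array, 2.34 to 2.88 on the other 3 of wild type and 0.70 to 1.54 on the VRK1-deficient arrays. Both germ cell and Sertoli cell markers were well above background in both genotypes, as the tissue label requires.

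The probes themselves show what was measured. Searched with the stem of the Hist1h3a probe and no other, the stem-loop lies within 3 histone probes in whole or in part. Its letters are in capitals here, in at most 30 bases of each probe. The probe of Hist1h3a holds all 16 bases, that of Hist1h2ab ends with the first 11 of them, and that of Hist1h2ae begins with the last 12.
Hist1h3a: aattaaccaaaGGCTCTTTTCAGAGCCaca
Hist1h2ab: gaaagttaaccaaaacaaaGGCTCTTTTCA
Hist1h2ae: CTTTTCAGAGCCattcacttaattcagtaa
The motif GGCTCTNNNNAGAGCC, searched as written, was found in 2 of 41174 probes, and Hist1h3a was the one histone probe among them. The Hist1h2ae probe lies mostly downstream of the stem-loop, where a normally ended histone mRNA stops, and it was above background on 0 of 8 arrays. The Hist1h2ab probe was above background on all 8 arrays, as was that of Hist1h3a.

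Histone genes of one core type have nearly the same coding sequence, and so have their probes. Of all pairs of the 67 probes, 15 shared a run of at least 20 bases, and both probes of all 15 pairs were of the same core type or both of H1. In these pairs of 60-base probes the shared run is in capitals. They lie, on mouse build mm7, at chr13:22947598-22947657 (plus strand, Hist1h4d), chr13:22917373-22917432 (minus, Hist1h4f), chr13:21402048-21402107 (plus, Hist1h2bk), chr13:21088259-21088318 (plus, Hist1h2bm), chr13:23300592-23300651 (plus, Hist1h2aa) and chr13:22900228-22900287 (plus, Hist1h2af).
Hist1h4d: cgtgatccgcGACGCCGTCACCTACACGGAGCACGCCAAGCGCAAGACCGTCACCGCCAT
Hist1h4f: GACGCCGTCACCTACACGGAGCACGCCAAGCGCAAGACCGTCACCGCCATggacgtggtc
Hist1h2bk: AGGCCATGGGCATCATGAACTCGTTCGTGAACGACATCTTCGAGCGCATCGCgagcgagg
Hist1h2bm: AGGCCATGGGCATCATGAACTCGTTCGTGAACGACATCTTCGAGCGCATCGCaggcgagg
Hist1h2aa: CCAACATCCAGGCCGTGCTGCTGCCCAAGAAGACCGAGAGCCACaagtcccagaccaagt
Hist1h2af: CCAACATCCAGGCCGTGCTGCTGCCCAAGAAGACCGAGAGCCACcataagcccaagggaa
The shared runs are of 50 bases (H4), 52 bases (H2B) and 44 bases (H2A). Hist1h2aa, which is itself expressed mainly in the testis, could therefore not be told apart from other H2A genes. The array files listed 13 of the 58 tested histone probes for more than 1 RefSeq gene. They list at most 4 accessions a probe, so the true number may be higher. Signals of H2A, H2B, H3 and H4 genes are therefore read by core type first, and the probes of a core type are not independent measurements. By contrast, the probes of the testis form Hist1h2ba (chr13:23299744-23299803, minus strand) and the linker histone Hist1h1a (chr13:23129821-23129880, plus strand) were listed for 1 RefSeq gene each and shared no such run with another histone probe. Shorter runs and matches with mismatches were not searched, so these probes may still read RNA of related genes.
Hist1h2ba: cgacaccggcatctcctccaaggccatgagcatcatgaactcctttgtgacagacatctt
Hist1h1a: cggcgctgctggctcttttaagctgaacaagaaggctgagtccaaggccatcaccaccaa

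Of the 67 histone probes, 58 (43 genes) were tested, 55 passed that background limit on every one of the 8 arrays, and 9 were not tested. The dim ones were 2 of 3 probes of Hist1h1d, 1 of 2 probes each of Hist2h2aa2, Hist4h4 and H2afz, and the only probes of Hist1h2ac, Hist1h2ae, Hist1h2be and H1fnt. Of these 9, 7 were above background on no array.

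In VRK1-deficient testis, 3 histone probes rose and 0 fell. They were the variant H2afz, the linker histone Hist1h1c and Hist1h4d. This is 5.17% of the tested histone probes. Among all tested probes 3.66% were called (1.67% higher and 1.98% lower), so the share of calls was near that of the array. At an unadjusted p under 0.05, limma gave 22 histone probes higher and 1 lower, which is 39.7% of the histone probes in either direction against 28.8% of all tested probes. The 4 VRK1-deficient arrays lay above the 4 wild type arrays for 15 histone probes (25.9%, against 9.39% of all tested probes) and below them for 1 (1.72%, against 7.31%). The change was above 0 for 45 of 58 histone probes, and for 54.5% of all tested probes. The median log2 change of histone probes was 0.23, against 0.04 over all tested probes. No test was made of the list as a whole, since many of its probes share sequence.

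**Figure D1:**
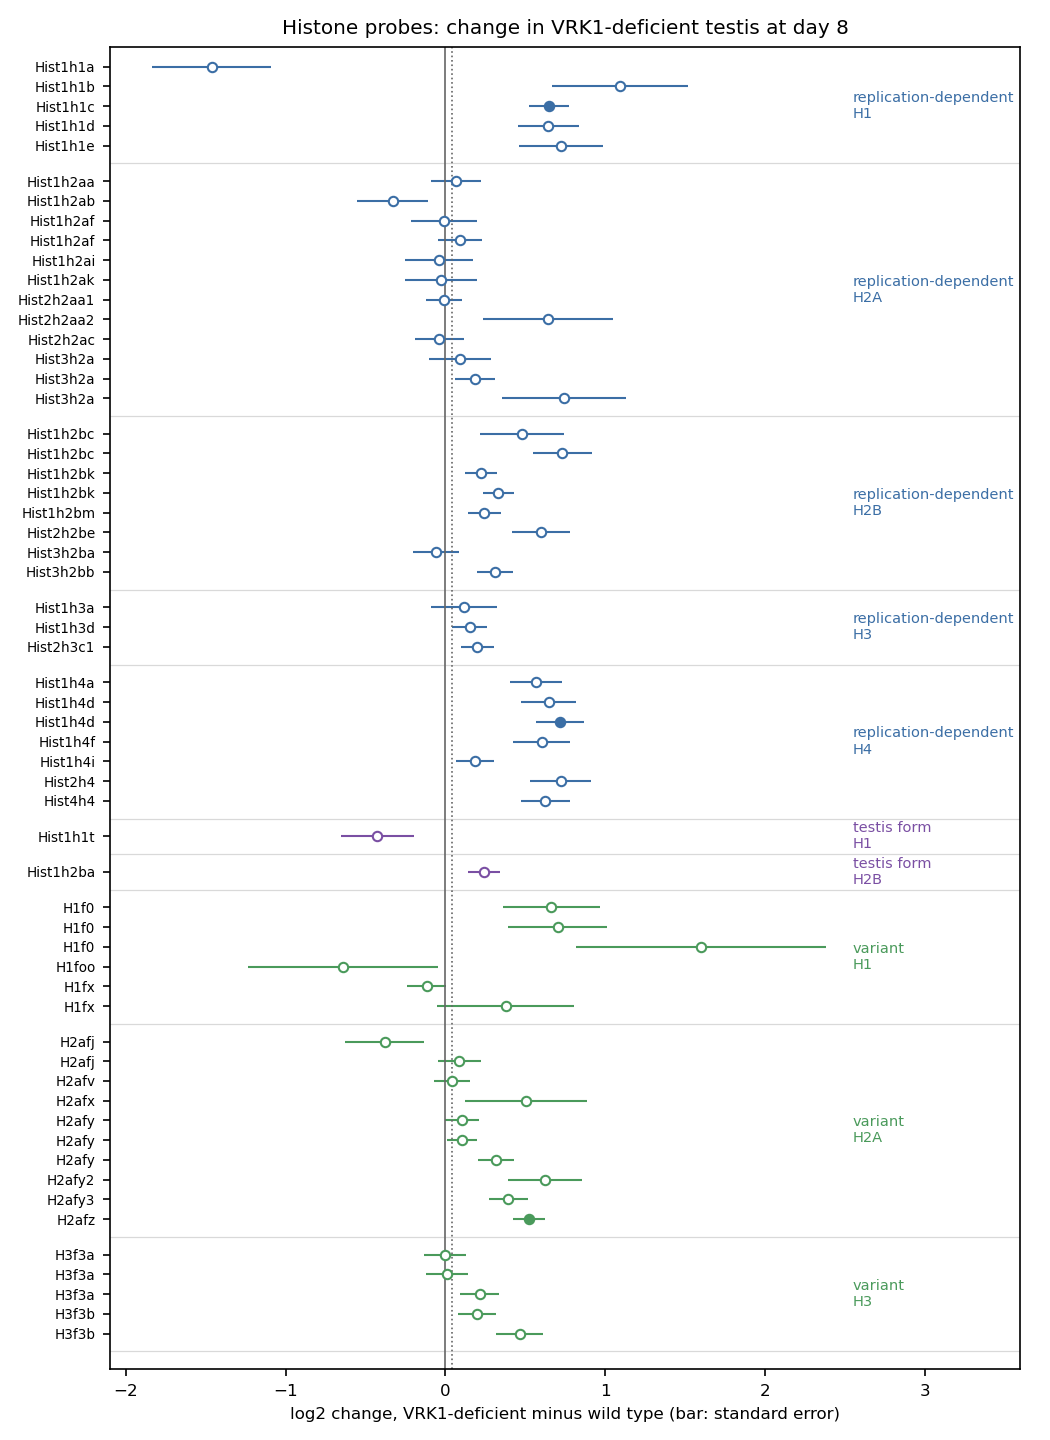
The x axis is the log2 change of each tested histone probe (VRK1-deficient minus wild type, 4 arrays each), with its standard error as a bar; a row is a probe, grouped by class and histone type, filled circles are called probes, the solid line is 0 and the dotted line the median of all tested probes, 0.041. Filled circles are seen for Hist1h1c, Hist1h4d and H2afz, all 7 H4 probes lie to the right of 0, and Hist1h1a lies farthest to the left.

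The changes of the replication-dependent genes and of the variants were of similar size. Over 1 probe a gene (the brightest), the median log2 change was 0.24 for 29 replication-dependent genes and 0.39 for 12 variants, a difference of -0.14. Taking all probes, it was 0.24 for 35 replication-dependent and 0.21 for 21 variant probes. The mean signal of the 29 replication-dependent genes was 1.85 ± 0.06 in wild type and 2.15 ± 0.19 in VRK1-deficient testis (SD, n = 4), and that of the 12 variants was 3.00 ± 0.26 and 3.28 ± 0.05. The mean of the first minus that of the second was -1.15 ± 0.21 in wild type and -1.13 ± 0.17 in VRK1-deficient testis, so it differed by less than the spread between replicates. When probes listed for several RefSeq genes were left out, the difference of the medians was 0.23 in place of -0.14, and the replication-dependent genes were then the higher class. This setting was added after the data were seen.

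Within the replication-dependent class, the histone types (the linker histone H1 and the core types) differed more than the classes did. The median log2 change of probes was 0.65 for H1, 0.03 for H2A, 0.32 for H2B, 0.15 for H3 and 0.63 for H4. Among the H1 probes, that of Hist1h1a gave -1.46. For H2A, 6 of 12 probes were above 0 and 0 of 12 had an unadjusted p under 0.05. The direction of the H2A median turned with the scaling of the arrays (0.03 as reported, -0.06 with quantile normalization, -0.15 without scaling). It also turned with the slide, with 11 of 12 probes above 0 on slide 1 (median 0.21) and 4 of 12 on slide 2 (-0.10). The H4 median was 0.43 on slide 1 and 0.83 on slide 2, and that of H3 was 0.30 and 0.03. With 1 array left out, the H2A median ran from -0.04 (wild type replicate 1 removed) to 0.13 (VRK1-deficient replicate 4 removed). The median of the 3 H3 probes was -0.03 without scaling, which moved the median of all tested probes to -0.14. For H4 all 7 probes, for H2B 7 of 8 and for H1 4 of 5 were above 0, under each of the 3 scalings and in normexp-corrected data. Probes of H2A and H4 both had a median GC content of 60%, and all 317 tested probes with a GC content of at least 60% had a median log2 change of 0.09. By gene cluster, with the 2 testis forms counted in Hist1, the median was 0.24 for 25 tested probes of Hist1 (chromosome 13), 0.40 for 6 of Hist2 (chromosome 3) and 0.18 for 5 of Hist3 (chromosome 11), and the single tested Hist4 probe (chromosome 6) gave 0.63.

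Histone H4, which pairs with H3 in the core of the nucleosome, was measured by 7 tested probes for 6 genes. Hist1h4d had a log2 scaled signal of 4.23, 4.01, 3.64 and 3.74 on the wild type arrays and 4.52, 4.62, 4.80 and 4.54 on the VRK1-deficient arrays, in the order of replicates 1 to 4. The groups did not overlap, and wild type replicate 1 was nearest to the VRK1-deficient arrays. The log2 change was 0.72 (SE 0.15, n = 4, adjusted p = 0.0473 in limma), a 1.64-fold rise. It was 0.45 on slide 1 and 0.98 on slide 2. The call held under 6 of 19 alternatives, among them slide as a block (adjusted p = 0.0491 in limma), and was lost with quantile normalization (0.0506), without scaling (0.192), without a filter on dim probes (0.0891) and with the methods' t-test (0.0780). This probe was listed for the RefSeq genes of 4 H4 copies. The second probe of Hist1h4d, listed for 1 gene, gave 0.65 (adjusted p = 0.0627 in limma).

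The other H4 probes did not pass the test, and all but that of Hist1h4i gave values of like size. Hist4h4, the lone gene of its cluster, had a signal of 1.02, 0.86, 0.60 and 0.90 in wild type and 1.33, 1.40, 1.84 and 1.31 in VRK1-deficient testis. Its groups did not overlap, with replicate 3 the highest of the VRK1-deficient arrays (log2 change 0.63, adjusted p = 0.0550 in limma). Hist2h4 gave 3.28, 3.03, 2.58 and 2.78 in wild type and 3.61, 3.75, 3.94 and 3.26 in VRK1-deficient testis (log2 change 0.72, adjusted p = 0.0617 in limma). Only VRK1-deficient replicate 4 of Hist2h4 came within the range of wild type. The log2 change was 0.57 for Hist1h4a, 0.60 for Hist1h4f and 0.18 for Hist1h4i (adjusted p = 0.0707, 0.0756 and 0.329 in limma). Hist1h4a, Hist1h4d, Hist1h4f and Hist2h4 shared runs of at least 20 bases in 4 pairs, and on all 4 the wild type arrays stood in the same order, replicate 1 highest and replicate 3 lowest. The mean signal of the 6 H4 genes lay between 2.08 and 2.53 in wild type and between 2.64 and 3.12 in VRK1-deficient testis, with no overlap.

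**Figure D2:**
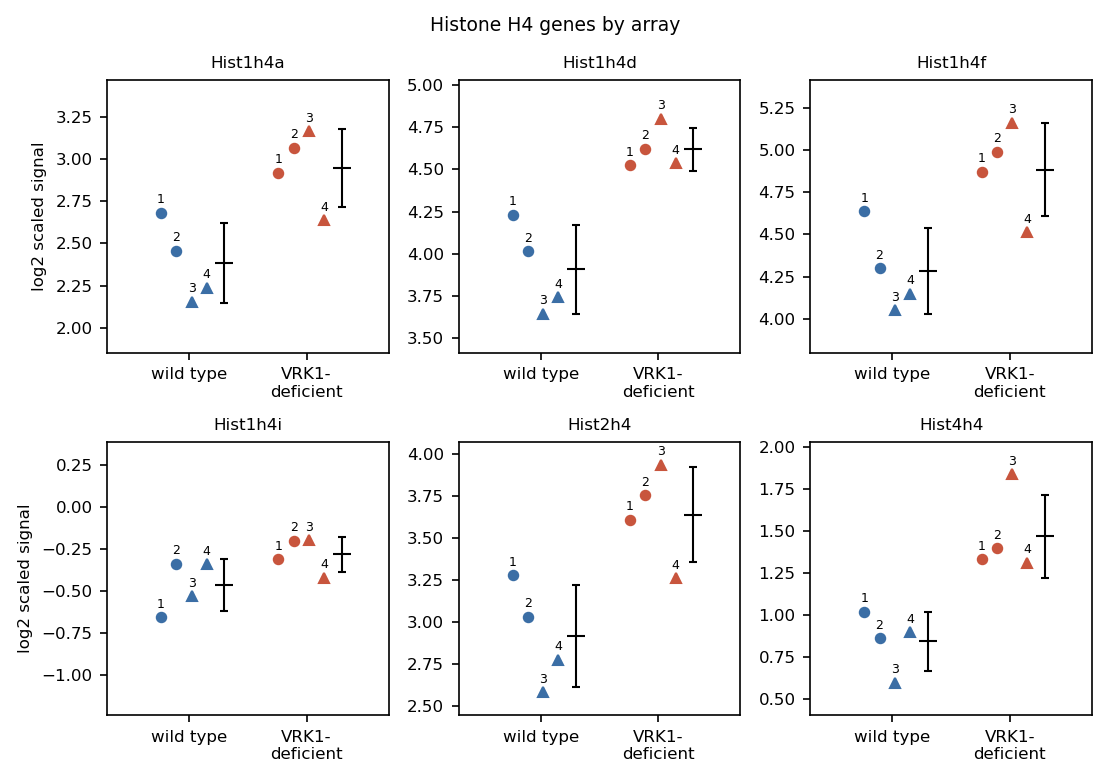
The y axis is the log2 scaled signal of the brightest probe of each H4 gene, with the same span in every panel; points are arrays, numbered by replicate, circles are slide 1 and triangles slide 2, and black bars are the mean ± SD of 4. Hist1h4d and Hist4h4 show no overlap between genotypes, and Hist1h4i shows the least separation.

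Linker histone H1 binds the DNA between nucleosomes. Its replication-dependent subtypes differ in sequence, so their tested probes were listed for 1 RefSeq gene each, and they did not move together. Hist1h1c, known as H1.2, had a signal of 0.81, 0.45, 0.70 and 0.44 on the wild type arrays and 1.25, 1.31, 1.33 and 1.10 on the VRK1-deficient arrays. The groups did not overlap, and the spread within each was small (SD 0.19 and 0.10). The log2 change was 0.65 (SE 0.13, n = 4, adjusted p = 0.0446 in limma), a 1.56-fold rise. It was 0.65 on slide 1 and 0.64 on slide 2. The call held under 7 of 19 alternatives, among them slide as a block (adjusted p = 0.0489 in limma), and was lost without scaling (0.217), without the filter (0.0889) and with the methods' t-test (0.0608). The probe lies at chr13:23105951-23106010 (build mm7, plus strand).

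Hist1h1a, known as H1.1 and abundant in spermatogonia and early spermatocytes, went the other way. Its signal was 0.46, 1.25, 2.01 and 1.45 on the wild type arrays and -0.15, 0.24, 0.29 and -1.07 on the VRK1-deficient arrays. It was the one tested histone probe with all VRK1-deficient arrays below all wild type arrays, though wild type replicate 1 was near them. The log2 change of -1.46 (SE 0.38, n = 4), or 0.362-fold, did not pass the test (adjusted p = 0.0594 in limma). It was -0.81 on slide 1 and -2.12 on slide 2. Without wild type replicate 1 it was -1.74 and passed (adjusted p = 0.00917 in limma). The direction was the same under all 19 alternatives, with an adjusted p between 0.00917 and 0.501.

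The other replication-dependent H1 genes were on the side of Hist1h1c. Hist1h1b (H1.5) had a signal of 2.09, 1.27, -0.01 and 0.69 in wild type and 2.30, 2.21, 2.54 and 1.36 in VRK1-deficient testis, so the groups overlapped. Its log2 change of 1.09 (SE 0.43) was the highest of the replication-dependent genes and did not pass the test (adjusted p = 0.135 in limma). Hist1h1e (H1.4) gave 0.73 and Hist1h1d (H1.3) gave 0.64 (adjusted p = 0.116 and 0.0758 in limma). For Hist1h1b, Hist1h1d and Hist1h1e, VRK1-deficient replicate 4 was the lowest array of its group.

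**Figure D3:**
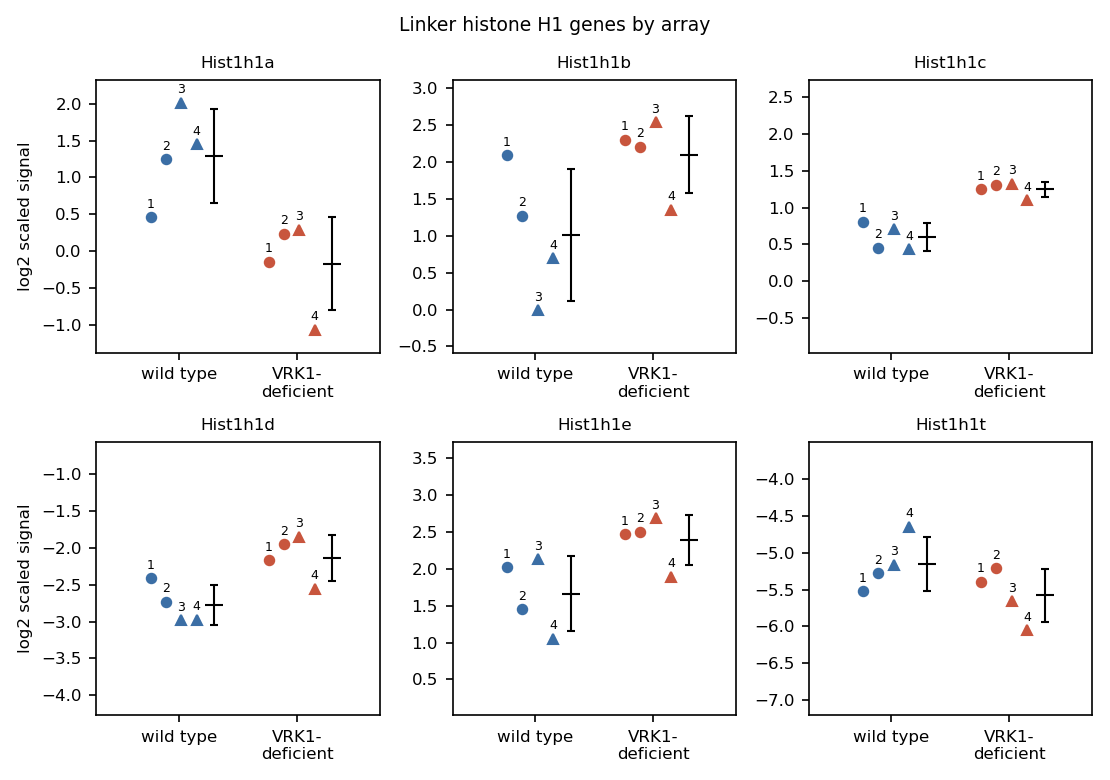
The y axis is the log2 scaled signal of 5 replication-dependent linker histone genes and of the testis form Hist1h1t, with the same span in every panel; points are arrays, numbered by replicate, circles are slide 1 and triangles slide 2, and black bars are the mean ± SD of 4. Hist1h1c is higher and Hist1h1a lower on every VRK1-deficient array, whereas the groups of the other 4 genes overlap.

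Histone H2B was measured by 8 tested probes for 6 genes, none of which was called. The VRK1-deficient arrays lay above wild type for 5 of the 8 probes, as they did for 9.39% of all tested probes. Hist1h2bc had a signal of -1.48, -1.51, -1.50 and -1.99 in wild type and -1.07, -0.91, -1.13 and -0.45 in VRK1-deficient testis (log2 change 0.73, SE 0.18, adjusted p = 0.0577 in limma). Replicate 4 was the lowest wild type array and also the highest VRK1-deficient array, and the groups did not overlap. The second, dimmer probe of Hist1h2bc gave 0.48 with overlapping groups (adjusted p = 0.259 in limma). Hist2h2be gave a log2 change of 0.60 (adjusted p = 0.0801 in limma), with wild type replicate 1 at 0.54 and the other wild type arrays between -0.19 and -0.06. The coding probes of Hist1h2bk and Hist1h2bm, which share 52 bases, gave 0.22 and 0.24 (adjusted p = 0.179 and 0.158 in limma). A dimmer probe of Hist1h2bk gave 0.33 without overlap (adjusted p = 0.0739 in limma). Hist3h2bb gave 0.31 and Hist3h2ba gave -0.06 (adjusted p = 0.112 and 0.802 in limma). The accessions of both probes led to the same RefSeq gene, so which gene each reads is uncertain. The Hist3h2bb probe also shares 26 bases with each of those coding probes of Hist1h2bk and Hist1h2bm.

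Among H2A genes, the brightest probes showed little difference. Hist1h2aa had a signal of 6.97, 7.17, 7.50 and 7.27 in wild type and 7.19, 7.41, 7.53 and 7.04 in VRK1-deficient testis (log2 change 0.06, SE 0.16, adjusted p = 0.807 in limma). The groups overlapped throughout. Hist1h2af gave 0.09 with one probe and -0.01 with the other, and neither passed the test (adjusted p = 0.682 and 0.981 in limma). The log2 change was -0.04 for Hist1h2ai and for Hist2h2ac, -0.03 for Hist1h2ak and -0.01 for Hist2h2aa1, each with a standard error between 0.11 and 0.23. Hist1h2ab, whose probe ends in the stem-loop, gave -0.33 (SE 0.22, adjusted p = 0.346 in limma).

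Hist3h2a was the H2A gene with the highest change, and its 3 probes disagreed in size. The brightest gave a signal of 3.97, 3.14, 3.32 and 3.19 in wild type and 4.44, 4.65, 4.62 and 2.88 in VRK1-deficient testis (log2 change 0.74, SE 0.39, adjusted p = 0.237 in limma). On this probe, 3 VRK1-deficient arrays were above all of wild type and replicate 4 was below it. The other probe on the plus strand gave 0.18. The third, which the array files place on the opposite strand, gave 0.09. Hist2h2aa2 gave 0.64 from a dim probe (SE 0.41, adjusted p = 0.320 in limma). The 3 tested H3 genes gave 0.12 (Hist1h3a), 0.15 (Hist1h3d) and 0.20 (Hist2h3c1), with adjusted p between 0.238 and 0.736 in limma.

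The testis forms gave no call. TH2B (Hist1h2ba) had a signal of 0.27, 0.39, 0.31 and 0.17 in wild type and 0.50, 0.55, 0.47 and 0.59 in VRK1-deficient testis. The groups did not overlap, but the difference was small (log2 change 0.24, SE 0.10, adjusted p = 0.153 in limma). It was of the size seen with the brightest probes of the H2B genes Hist1h2bk and Hist1h2bm. H1t (Hist1h1t) was dim. It stood well above background in all 4 wild type samples and in 2 of 4 VRK1-deficient samples, with a signal of -5.52, -5.28, -5.17 and -4.65 in wild type and -5.40, -5.21, -5.66 and -6.05 in VRK1-deficient testis. The groups overlapped (log2 change -0.43, SE 0.23, adjusted p = 0.245 in limma), and the sign turned with normexp correction (0.19) and on slide 1 alone (0.09). Of 6 genes of nuclear condensation in spermatids, 4 were tested (Tnp1, Tnp2, Prm1 and Prm2) and 0 were called, with a median log2 change of 0.05. At an unadjusted p under 0.05, limma gave 0 of these 4. Spermatids have not formed at this age.

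Of the variants, H2A.Z (H2afz), which marks promoters and other regulatory chromatin, rose. Its signal was 4.99, 4.91, 5.13 and 4.98 on the wild type arrays and 5.50, 5.48, 5.59 and 5.53 on the VRK1-deficient arrays. The groups did not overlap and were narrow (SD 0.09 and 0.05), and wild type replicate 1 lay among the other wild type arrays. The log2 change was 0.52 (SE 0.10, n = 4, adjusted p = 0.0446 in limma), a 1.44-fold rise. It was 0.54 on slide 1 and 0.50 on slide 2. The call held under 8 of 19 alternatives, among them slide as a block and the methods' t-test (adjusted p = 0.0488 in limma and 0.0392), and was lost without scaling (0.350) and without the filter (0.0889). The probe lies at chr3:137674646-137674705 (build mm7, plus strand). The second probe of this name, which the files place on chromosome 6, was above background on no array. H2A.V (H2afv), the close relative of H2A.Z, had a signal of 6.52 to 6.88 in wild type and 6.64 to 6.76 in VRK1-deficient testis (log2 change 0.04, SE 0.12, adjusted p = 0.834 in limma).

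The histone H3.3 genes H3f3a and H3f3b encode the same protein, which replaces H3 outside S phase. The brighter probe of H3f3b had a signal of 7.23, 6.78, 7.05 and 6.63 in wild type and 7.52, 7.41, 7.35 and 7.27 in VRK1-deficient testis. The groups did not overlap, with wild type replicate 1 nearest to the other group (log2 change 0.46, SE 0.15, adjusted p = 0.0867 in limma). The second probe gave 0.20 (adjusted p = 0.292 in limma). The 3 probes of H3f3a gave 0.21, 0.01 and -0.00196, with adjusted p between 0.286 and 0.994 in limma.

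The macroH2A genes encode large H2A variants found in silent chromatin. The 3 probes of H2afy gave log2 changes of 0.10, 0.10 and 0.32, and H2afy2, a dim probe, gave 0.62 (adjusted p between 0.110 and 0.539 in limma). H2afx, the variant phosphorylated at DNA breaks, had a signal of 5.01, 4.42, 4.48 and 2.99 in wild type and 4.99, 4.90, 4.28 and 4.74 in VRK1-deficient testis (log2 change 0.50, SE 0.38, adjusted p = 0.404 in limma). The wild type spread covered the VRK1-deficient arrays, and replicate 4 alone lay below them. The probe named H2afy3 gave 0.39 (adjusted p = 0.0846 in limma) without overlap. H2afj gave 0.09 with a bright probe that shares 29 bases with Hist1h2aa, and -0.38 with a dimmer probe of its own (adjusted p = 0.697 and 0.330 in limma).

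Among the linker histone variants, H1.0 (H1f0), known to accumulate in cells that leave the cycle, gave 0.66, 0.70 and 1.60 with 3 probes (adjusted p between 0.172 and 0.208 in limma). The brightest had a signal of 2.16, 2.01, 1.45 and 0.85 in wild type and 2.68, 2.53, 1.78 and 2.14 in VRK1-deficient testis, and the groups overlapped. H1fx gave 0.38 with one probe and -0.12 with the other (adjusted p = 0.584 and 0.554 in limma). The oocyte linker histone H1foo had a signal of -0.89 on wild type replicate 1 and of -3.89 to -3.39 on the other wild type arrays, and of -3.94 to -3.11 on the VRK1-deficient arrays. Its log2 change of -0.64 (SE 0.60, adjusted p = 0.498 in limma) rested on that array and was 0.05 without it.

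**Figure D4:**
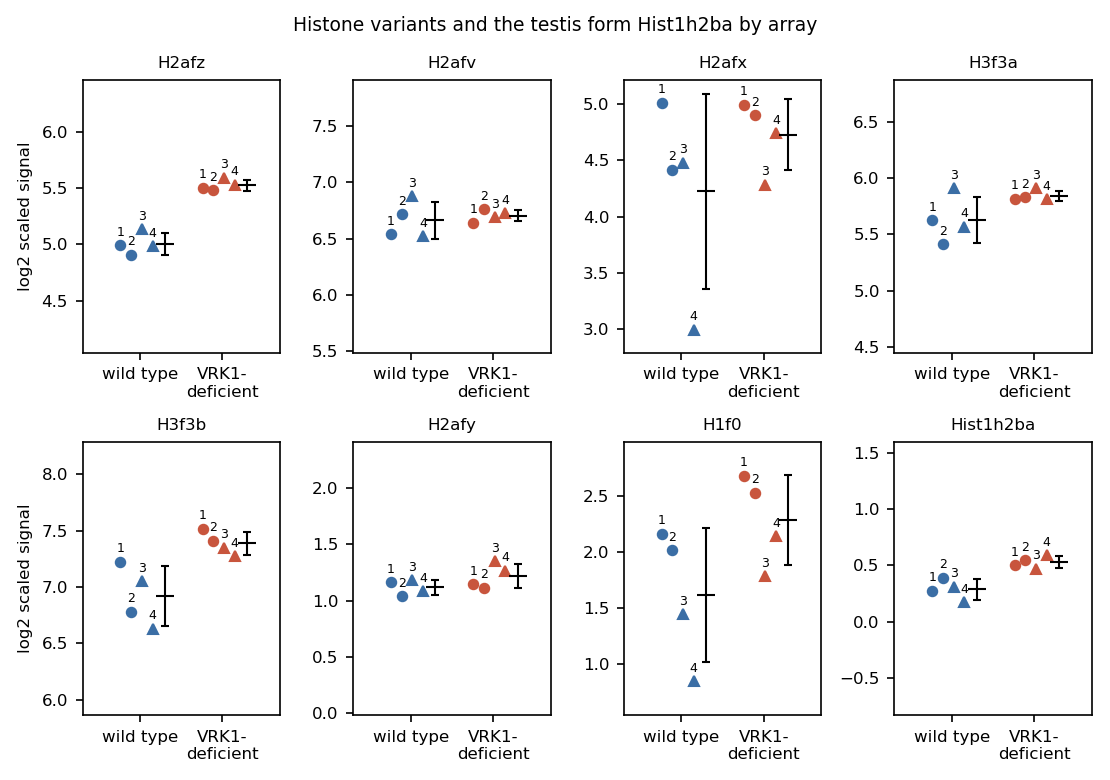
The y axis is the log2 scaled signal of the brightest probe of 7 variant genes and of the testis form Hist1h2ba, with the same span in every panel; points are arrays, numbered by replicate, circles are slide 1 and triangles slide 2, and black bars are the mean ± SD of 4. H2afz, H3f3b and Hist1h2ba show no overlap between genotypes, and the wild type arrays of H2afx and H1f0 are the most spread.

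RefSeq (GRCm38.p6) gave 41 promoters for 40 of the 47 symbols, each 250 bases before to 50 after the start of the gene. CCAAT, searched on both strands, was found in 25 of 28 replication-dependent and 7 of 11 variant promoters, and in 37.4% of all 32851 promoters. TATAAA was found in 18 of 28 and 1 of 11, and in 13.6% of all. The octamer ATTTGCAT was found in 9 of 28 and 1 of 11, and in 1.74% of all. H2B (3 of 5) and H2A (6 of 11) held the replication-dependent octamers, and CCAAT was least frequent in H4 (2 of 5). A match describes letters and not binding. The called Hist1h4d probe was listed for 4 H4 copies, and of these only Hist1h4d is shown. The 250 bases before the start are shown for genes of the 3 called probes and Hist1h1a, with these motifs on either strand in capitals. They lie on the plus strand of GRCm38.p6 at chr13:23581318-23581567 (Hist1h4d), chr13:23738557-23738806 (Hist1h1c), chr13:23763418-23763667 (Hist1h1a) and chr3:137864237-137864486 (H2afz).
Hist1h4d: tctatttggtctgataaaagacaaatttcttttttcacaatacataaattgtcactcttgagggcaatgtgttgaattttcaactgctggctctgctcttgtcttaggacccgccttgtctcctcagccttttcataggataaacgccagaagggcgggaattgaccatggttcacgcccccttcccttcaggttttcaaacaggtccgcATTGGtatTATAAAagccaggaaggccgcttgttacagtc
Hist1h1c: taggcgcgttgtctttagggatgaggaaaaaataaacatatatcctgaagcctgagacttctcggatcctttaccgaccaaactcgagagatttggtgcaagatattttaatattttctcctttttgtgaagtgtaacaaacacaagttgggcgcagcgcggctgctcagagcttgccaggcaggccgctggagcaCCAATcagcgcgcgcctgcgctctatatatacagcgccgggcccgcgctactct
Hist1h1a: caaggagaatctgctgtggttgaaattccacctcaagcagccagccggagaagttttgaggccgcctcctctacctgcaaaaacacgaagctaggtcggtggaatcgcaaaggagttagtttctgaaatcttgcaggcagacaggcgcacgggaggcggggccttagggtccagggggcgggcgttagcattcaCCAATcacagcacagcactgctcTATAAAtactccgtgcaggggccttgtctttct
H2afz: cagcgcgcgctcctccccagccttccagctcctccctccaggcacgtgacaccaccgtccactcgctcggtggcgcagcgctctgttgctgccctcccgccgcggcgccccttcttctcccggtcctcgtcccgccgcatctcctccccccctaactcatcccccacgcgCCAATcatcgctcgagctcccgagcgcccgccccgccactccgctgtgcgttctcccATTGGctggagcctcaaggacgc
Hist1h1c and Hist1h1a, whose signals differed in direction, each held 1 CCAAT in this stretch, and Hist1h1a and Hist1h4d each held 1 TATAAA. H2afz held CCAAT 2 times and no TATAAA, in a stretch with a GC content of 71.2%.

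Genes that act on histones were read from lists, beside the 3.66% of all tested probes that were called and the 14.8% lower and 14.1% higher at an unadjusted p under 0.05. Of 14 genes of histone transcription and pre-mRNA processing, among them Npat, the coactivator of histone genes, and Slbp, 0 were called, 10 were below 0 and the median log2 change was -0.14. At an unadjusted p under 0.05, limma gave 2 lower and 0 higher. Npat gave -0.31 and Slbp gave -0.21 (adjusted p = 0.359 and 0.451 in limma). Of 21 histone chaperones and deposition factors, 0 were called (3 lower and 5 higher at an unadjusted p under 0.05 in limma), with a median of 0.02. Of 22 genes of S phase, Pola1, a subunit of the primase-polymerase, rose (log2 change 0.53, SE 0.10, adjusted p = 0.0446 in limma). In all, 18 of the 22 were below 0, with a median of -0.15, and 3 were lower and 3 higher at an unadjusted p under 0.05 in limma. Of 8 mitosis genes, 0 were called (1 lower and 0 higher at an unadjusted p under 0.05 in limma), with a median of -0.07.

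Cell type markers differed beside the histones. All 8 measured germ cell markers (Ddx4, Dazl, Mael, Stra8, Kit, Tex101, Sycp3 and Sycp1) were below 0, with a median log2 change of -1.07. None was called by limma, and all 8 had an unadjusted p under 0.05. Their mean per array was 1.24 to 2.88 in wild type and 0.70 to 1.54 in VRK1-deficient testis. Of 8 Sertoli cell markers 7 were above 0, with a median of 0.40 and a mean per array of 2.04 to 2.87 in wild type and 2.62 to 2.96 in VRK1-deficient testis, and 0 were called (4 higher and 1 lower at an unadjusted p under 0.05 in limma). Wild type replicate 1, lowest for germ cell markers among wild type arrays and highest for Sertoli cell markers, was also the highest wild type array for the mean of H4, of H1 and of the variants, and the lowest for Hist1h1a. It was the lowest wild type array for the mean of H2A and of H3, and for H2B it was below replicate 2. The part of cell composition in the histone values was not tested. In RNA of whole testis, fewer cells of a type and less RNA per cell cannot be told apart. Of 3 peritubular myoid markers Cnn1 fell (log2 change -0.99, adjusted p = 0.0446 in limma), and the medians were 0.20 for Leydig cells, -0.08 for peritubular myoid cells, 0.09 for macrophages, 0.24 for endothelium and -0.07 for erythroid cells.

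**Figure D5:**
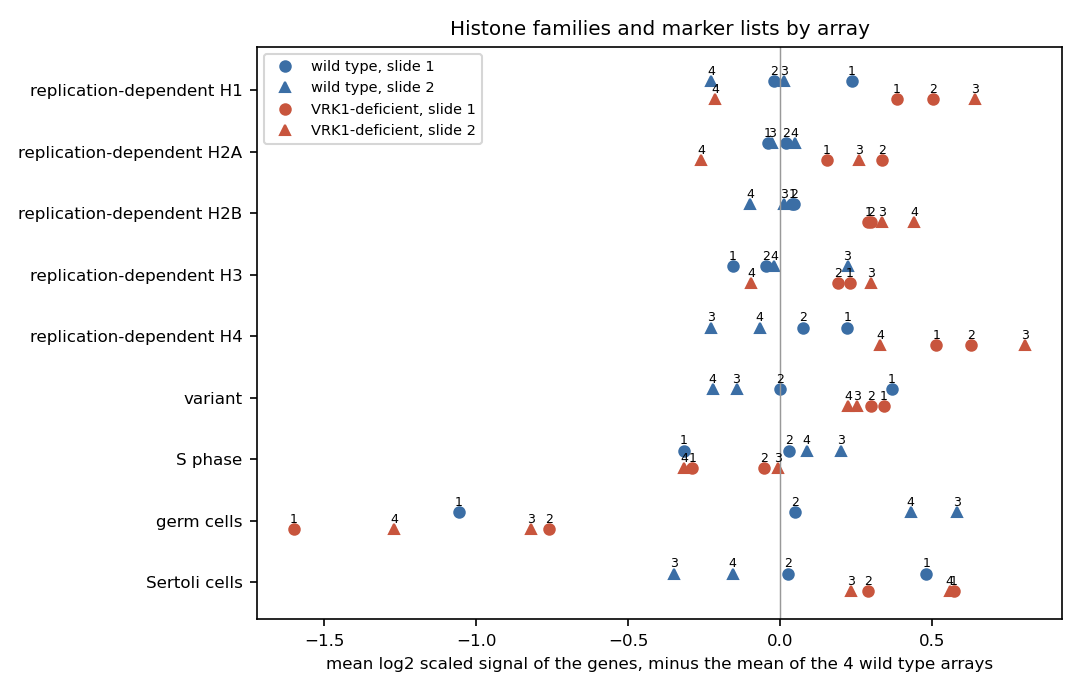
The x axis is the mean log2 scaled signal of the genes of each row, minus the mean of the 4 wild type arrays; points are arrays, numbered by replicate, blue for wild type and red for VRK1-deficient, circles for slide 1 and triangles for slide 2. The genotypes do not overlap for H4 and H2B, and wild type replicate 1 lies among the VRK1-deficient arrays for germ cell and Sertoli cell markers.

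The count of histone calls depended on single arrays, as did that over all tested probes. Without wild type replicate 1, 16 of 58 histone probes were called (15 higher and 1 lower, Hist1h1a). In that fit 7659 of all tested probes were called (28.4%), so the histone share was near that of the array. Without any one of the other 7 arrays, 0 histone probes were called, with at most 68 calls over all probes (0.252%). At an unadjusted p under 0.05 in limma, these fits gave 17 to 25 histone probes. The share of all probes at that cut is not given for these fits, so their counts cannot be read against it. The direction did not rest on these arrays for H4, whose 7 probes were above 0 whichever array was left out, with a median between 0.51 and 0.73.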

How the data were processed

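Testis RNA of 4 wild type and 4 VRK1-deficient replicates was hybridized to 1-color Agilent arrays, and the authors deposited the spot intensity that Agilent Feature Extraction 9.5.3.1 wrote (version from the submitters' processing notes). The processed signal had been background-corrected by that program. How the values were later normalized is not stated in the paper's methods or the labels. For each array, log2 of the deposited processed signal minus log2 of its 75th percentile was taken, and replicate spots were averaged. The 26962 probes that 4 or more arrays held well above background were tested with limma 3.58.1 in R 4.3.3, with Benjamini-Hochberg adjustment over all of them. The test was checked on simulated data. Groups came from the sample labels.

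Every histone probe was accounted for. Named were both testis forms, all variants, called genes, the 5 largest rises and 5 largest falls of replication-dependent genes, genes whose probes differed in direction, and called list members. Other genes were named after their values were seen. The members and lists were chosen with earlier results of these data known. Gene symbols matched RefSeq by accession for 54 and by synonym for 13 probes. The arrays' number and their signal over background limit the precision. Alternatives covered scaling, background correction, the filter, slide, replicate number, single arrays, the variance model and the methods' t-test.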

Additional observations from a re-analysis of the deposited data

Results flagged for a closer look

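In 5 of 86 groups of 4 arrays, 1 array lay far from the other 3, by its gap to the nearest of them as a share of the range of the group. Chance flags about 1 in 20 groups, or 4.3 of 86. For Hist1h2bc this share was 0.933 in wild type, with replicate 4 at -1.99 and the others between -1.51 and -1.48. For Hist3h2a it was 0.879 in VRK1-deficient testis, with replicate 4 at 2.88 and the others between 4.44 and 4.65. For Hist4h4 it was 0.839 in VRK1-deficient testis, with replicate 3 at 1.84 and the others between 1.31 and 1.40. For H1foo it was 0.831 in wild type, with replicate 1 at -0.89 and the others between -3.89 and -3.39. For Hist2h2be it was 0.830 in wild type, with replicate 1 at 0.54 and the others between -0.19 and -0.06.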

How the results depend on the processing

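The number of called histone probes, 3 of 58, was 2 with quantile normalization and 3 with slide as a block. It was 8 (1 lower) with normexp correction, 6 (1 lower) among probes well above background on all 8 arrays, and 11 (1 lower) with an intensity trend and robust variances. It was 1, the fall of Hist1h1a, without scaling, and 1 on slide 2 alone. It was 0 without a filter on dim probes (24 of 67 at an unadjusted p under 0.05 in limma) and 0 on slide 1 alone (14 in limma). The share of all probes at that unadjusted cut is not given for either setting. The methods' t-test gave 22 unadjusted (1 lower) and 2 adjusted. Of all tested probes, 2.94% were called with quantile normalization, 2.38% with slide as a block and 5.24% with normexp. The share was 5.7% on all 8 arrays, 7.11% with the trend, 3.4% without scaling and 3.93% on slide 2 alone. It was 0.0413% without a filter, 0.0111% on slide 1 alone, and 26.2% unadjusted and 0.601% adjusted with the t-test. With 1 array left out, called histone probes ranged from 0 to 16, and the share of all probes from 0.0111% to 28.4%. The named genes with a call, 3 as reported, were 7 with normexp, 6 on all 8 arrays, 10 with the trend, 1 without scaling, 1 with the adjusted t-test, 0 without a filter and 0 on either slide alone, and ranged from 0 to 13 with 1 array left out. The difference between the class medians, -0.14, kept its sign under 18 of 21 alternatives. It ranged from -0.22 to -0.03 with 1 array left out. It was 0.02 on slide 1 alone, 0.02 with the mean over a gene's probes, and 0.23 without probes listed for several RefSeq genes. The cause was not tested. With the replicate number as a block, 5 histone probes (1 lower) and 5 named genes were called, and 2280 probes in all in place of 986. Arrays of the same number shared deviations at correlations of 0.47, 0.07, 0.19 and -0.14. The labels do not tell whether the numbers pair the samples. No called value changed sign. Dim probes such as Hist1h1t are limited by their signal over background.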
